A study of Mus musculus with 6 samples.

Results

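The factors examined here drive transcription of the immunoglobulin (Ig) genes or steer the heavy chain pre-mRNA to its secretory form. The 9 genes were chosen by name from knowledge of these processes, out of 54446 genes in the table, and all 9 passed the minimum mean of 10 normalized counts that left 12322 genes for testing. Pou2af1, Pou2f1, Pou2f2, Tcf3, Tcf4 and Spi1 act on transcription, and Ell2, Cstf2 and Hnrnpll act on heavy chain RNA processing. The libraries came from B cells of young adult Tent5c knockout (KO) mice and wild-type (WT) littermates on a mixed C57BL/6J X CBA background, and TENT5C is a cytoplasmic poly(A) polymerase that extends the tails of mRNAs. Naive B cells were purified from spleen by removing other cells with magnetic beads, and were then grown for 7 days in IL-4 (20 ng/ml) plus LPS (20 µg/ml), a mixture that drives them towards antibody-secreting cells. There were 3 KO and 3 WT libraries of ribodepleted total RNA, 1 of each genotype per batch, and a batch is called a pair here. The knockout is constitutive and not limited to B cells.

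Libraries held between 5393558 and 6793520 counted fragments, and the values below are normalized counts, which are fragments divided by a library size factor. A log2 change is the KO minus the WT value of log2(normalized count + 1), with pairs as a block in limma, and CI is its 95% confidence interval. The Tent5c transcript itself stood at 1993, 993 and 1170 under the KO label, in the order of pairs 1 to 3, and at 1255, 767 and 1585 in their WT partners. It was thus not lower under the KO label (log2 change 0.20, SE 0.19, limma adjusted p = 0.970), so its total level does not check the labels, and KO below means labelled KO. B cell markers were abundant in all libraries, with 7 of 7 tested and a summed level of 43674 to 50127 in KO and 48853 to 50314 in WT. Plasma cell markers were also present, with 6 of 7 tested and sums of 11616 to 20451 in KO and 12008 to 24686 in WT, while Tnfrsf17, a receptor of mature plasma cells, was near 0. T cell markers summed to between 497 and 634 normalized counts over 10 genes in all libraries.

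The octamer, a short motif found in nearly every Ig promoter and in the heavy chain enhancer, is bound by the POU proteins OCT1 (Pou2f1) and OCT2 (Pou2f2). Their coactivator OBF1 (Pou2af1) joins them on the DNA and is required in mice for germinal centres. The E proteins E2A (Tcf3) and E2-2 (Tcf4) bind E boxes in the Ig enhancers, and PU.1 (Spi1), an ETS family factor, binds the light chain enhancers together with IRF4. In a resting B cell the heavy chain transcript is spliced to the membrane exons and ends at a distal poly(A) site, whereas a plasma cell uses the proximal site and secretes the antibody. ELL2, an elongation factor, and CstF-64 (Cstf2), a cleavage factor that binds downstream of the poly(A) signal, favour the proximal site. hnRNPLL (Hnrnpll) is a splicing regulator induced in plasma cells.

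The poly(A) signals between which ELL2, CstF-64 and hnRNPLL act are shown for Ighm and Ighg1 because the heavy chain fragments counted here can end at either of them. Each line gives 30 bases of the last exon, from 5′ to 3′ on the sense strand, with the AATAAA signal in capitals, from Gencode transcripts on GRCm38. All 4 lie on chromosome 12, minus strand, at chr12:113420741-113420770, chr12:113418558-113418587, chr12:113328883-113328912 and chr12:113325240-113325269 in the order shown.
Ighm secretory: tagaAATAAAaaaaatccattcaaacgtca
Ighm membrane: tggaAATAAAtactttatcttgtgaactca
Ighg1 secretory: tgtaAATAAAgcacccagcactgccttggg
Ighg1 membrane: ttgtcAATAAAacatttttcaaatattcta
The secretory transcripts have 4 exons and the membrane transcripts 6, and the transcript ends 26, 26, 35 and 25 bases after the start of the signal in that order. Each line was placed on the last AATAAA of its transcript, so the shared hexamer follows from that choice. Other signal sequences were not searched for. Counts per gene add up both forms, so the ratio of secretory to membrane transcripts was not analysed here, and the levels of the factors are what the data give.

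None of the 9 factors differed between KO and WT by limma at an adjusted p of 0.05, a threshold that 0% of the 12322 genes passed. At an unadjusted p under 0.05 the count was also 0 of 9, beside 4.7% of all genes tested, and after adjustment edgeR and DESeq2 each called 0 of 9, beside 0% of 12322 and 0.232% of 9894 genes. The KO and WT values overlapped for each of the 9 genes, whereas the groups did not overlap for 6.83% of all genes. None of the 9 genes moved the same way in all 3 pairs, a pattern seen for 24.8% of all genes. Of the 27 ratios of KO to WT, 1 for each factor and pair, 15 were below 1 and 12 above it. The median log2 change of the 9 factors was -0.01, and that of all genes was 0.00. In bulk RNA, fewer cells that express a factor and less of its RNA per cell cannot be told apart. With 3 pairs the widest interval belonged to Hnrnpll.

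**Figure D1:**
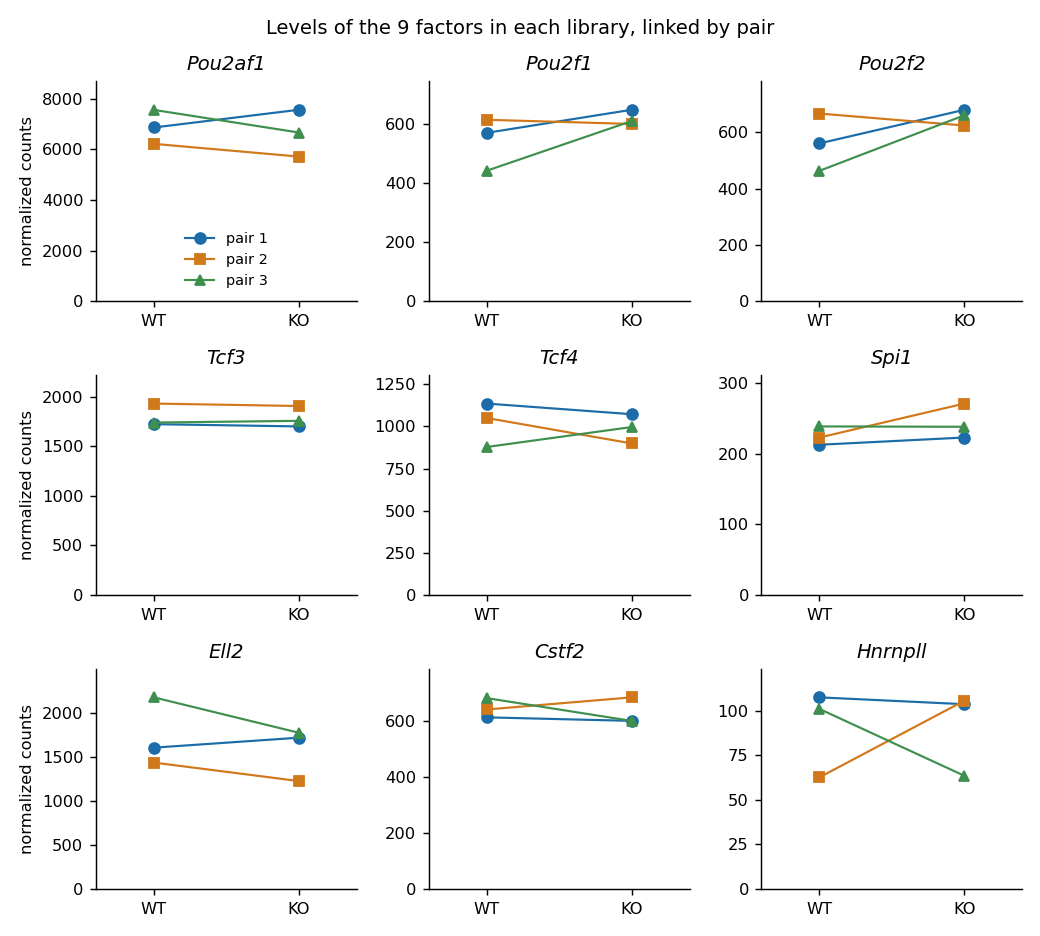
Normalized counts of the 9 factors (vertical axes, linear and starting at 0) in the WT and KO libraries (horizontal axes), 1 point per library, with a line and a marker shape for each of the 3 pairs. KO and WT points overlap in every panel, and no panel has 3 lines running the same way.

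**Figure D2:**
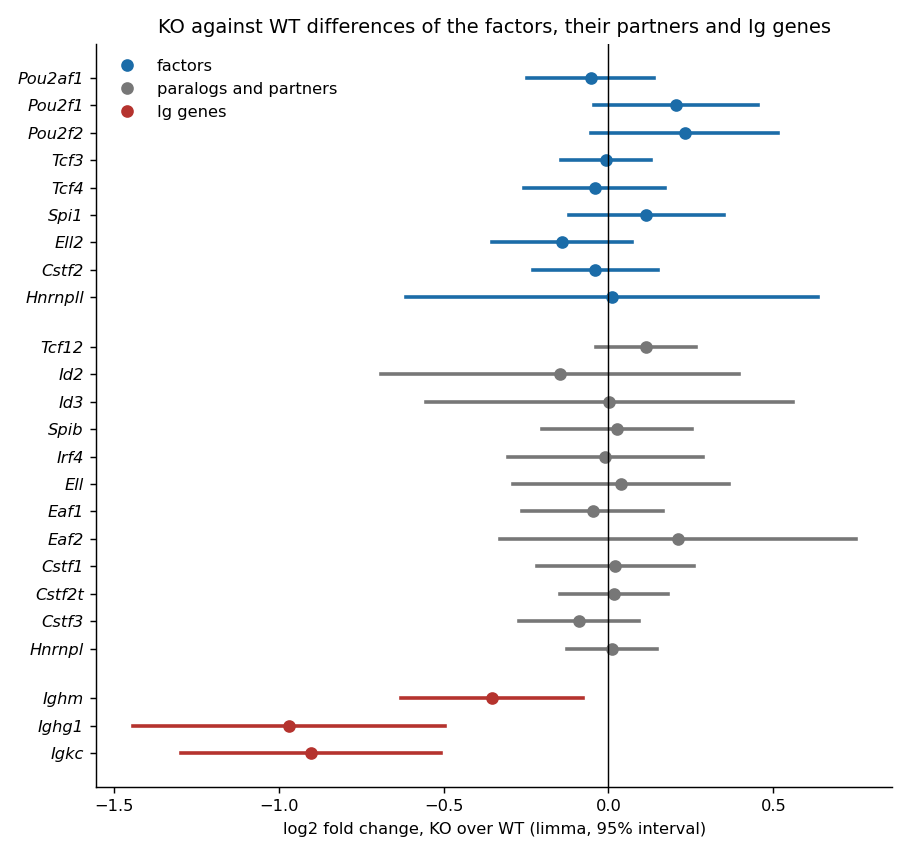
Log2 change of KO against WT (horizontal axis) with the 95% CI from limma for the 9 factors, for their paralogs and partners and for Ighm, Ighg1 and Igkc. The 9 estimates lie between -0.14 for Ell2 and 0.23 for Pou2f2, and every interval of a factor crosses 0, while those of the 3 Ig genes lie below 0.

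Pou2af1 (ENSMUSG00000032053, chr9:51213708-51240080, plus strand, GRCm38), the B cell coactivator of the octamer factors, had the highest level per kilobase of the 9. Its normalized counts were 7561, 5712 and 6662 in KO and 6861, 6215 and 7555 in WT for pairs 1 to 3. The highest value was the KO library of pair 1 and the lowest the KO library of pair 2, so the WT values lay within the KO range. KO was 1.10-fold of WT in pair 1, 0.919-fold in pair 2 and 0.882-fold in pair 3. The group means were 6645 ± 924 in KO and 6877 ± 670 in WT (SD, n = 3), with a log2 change of -0.05 (SE 0.08, CI -0.25 to 0.14, limma adjusted p = 0.974). That interval allows a fall of at most 15.7% or a rise of at most 9.96%.

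Pou2f1 (ENSMUSG00000026565, chr1:165865154-166002678, minus strand), the widely expressed octamer factor, measured 646, 599 and 608 in KO and 569, 613 and 441 in WT. Pou2f2 (ENSMUSG00000008496, chr7:25087344-25179726, minus strand), the factor enriched in B cells, measured 680, 624 and 661 in KO and 561, 667 and 464 in WT. For both genes KO exceeded WT in pairs 1 and 3 and was slightly below it in pair 2, and the WT library of pair 3 was the lowest of the 6. The log2 change was 0.21 for Pou2f1 (SE 0.10, CI -0.04 to 0.45, limma adjusted p = 0.970), with means of 618 ± 25.3 in KO and 541 ± 89.3 in WT (SD, n = 3). For Pou2f2 it was 0.23 (SE 0.12, CI -0.05 to 0.51, limma adjusted p = 0.970), with means of 655 ± 28.5 and 564 ± 102. These were the largest estimates among the 9 factors, and their size rested on pair 3: without it they were 0.08 and 0.09. Without pair 2, the pair that ran the other way, they were 0.32 and 0.39 with unadjusted limma p of 0.0310 and 0.0122, and adjusted p of 0.984 at the lowest.

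The octamer factors also tracked each other across libraries. Pou2f1 and Pou2f2 put the 6 libraries in the same order, from the KO library of pair 1 down to the WT library of pair 3 (Pearson r = 0.97 over 6 libraries that share their size factors and pairs, a description). The ratio of Pou2f2 to Pou2f1 therefore stayed between 0.987 and 1.09 in all 6 libraries, at 1.06 ± 0.02 in KO and 1.04 ± 0.05 in WT (SD, n = 3). The log2 difference of that ratio was 0.03 ± 0.08 over the pairs (exact two-sided sign-flip p = 0.75, the smallest possible with 3 pairs being 0.25). Pou2af1, the coactivator, had less signal per Pou2f2 in the KO partner of each pair, with log2 differences of -0.14, -0.03 and -0.69. The mean was -0.29, at the smallest exact sign-flip p of 0.25 and 0.875 after adjustment over the 7 ratios tested, so the design cannot place it below 0.05. A direction held in all pairs was seen for 24.8% of single genes.

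**Figure D3:**
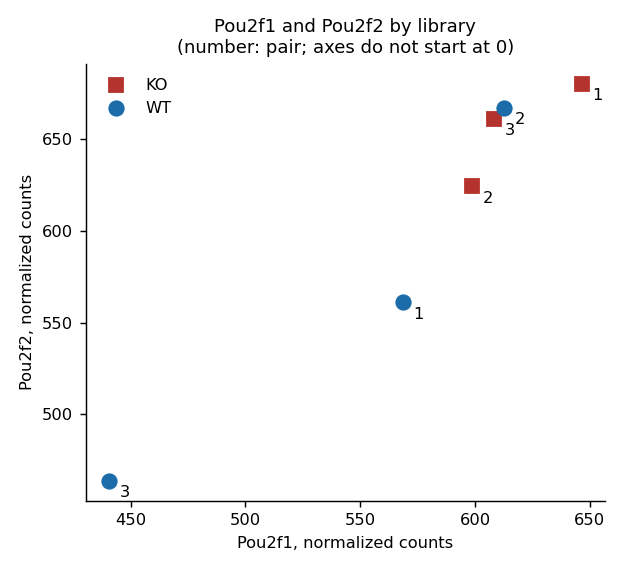
Pou2f2 (vertical axis) against Pou2f1 (horizontal axis), both in normalized counts, 1 point per library, with the genotype as colour and shape and the pair as a number, on axes that do not start at 0. The points rise together from the WT library of pair 3 (441 and 464) to the KO library of pair 1 (646 and 680), and Pou2f2 per Pou2f1 stays between 0.987 and 1.09.

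The octamer pathway was read through 10 listed factors, cofactors and targets, of which 9 were tested, with a median log2 change of 0.06, and none passed the adjusted threshold in either direction. Pou2f3, the octamer factor of epithelial chemosensory cells, was at 0 in all 6 libraries. Cr2, the complement receptor of mature B cells, had the smallest unadjusted p of this list and was higher in KO in all 3 pairs, at 96.3, 64.8 and 59.9 against 66.1, 38.7 and 25.3. Its groups overlapped, and its log2 change was 0.83 (CI 0.35 to 1.30, limma adjusted p = 0.737). These values rested on 102, 68 and 66 fragments in KO and 70, 37 and 21 in WT. Mef2b, a germinal centre transcription factor, was higher in all 3 pairs by a mean log2 change of 0.13 (CI -0.08 to 0.33).

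Tcf3 (ENSMUSG00000020167, chr10:80409514-80433647, minus strand), which encodes the E proteins E12 and E47, had the smallest differences between partners of the 9 factors. It measured 1700, 1905 and 1756 in KO and 1723, 1930 and 1739 in WT. Members of a pair lay within 0.02 of each other on the log2 scale, while the pairs differed more, with pair 2 highest in both genotypes. The log2 change was -0.01 (SE 0.06, CI -0.14 to 0.13, limma adjusted p = 0.993), which allows a fall of at most 9.51% or a rise of at most 9.32%.

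Tcf4 (ENSMUSG00000053477, chr18:69343356-69689079, plus strand), the E protein E2-2, measured 1072, 899 and 996 in KO and 1135, 1050 and 878 in WT. KO was lower in pairs 1 and 2 and higher in pair 3, and the log2 change was -0.04 (SE 0.09, CI -0.26 to 0.17, limma adjusted p = 0.983). E2-2 also drives plasmacytoid dendritic cells, so the markers of those cells were read beside it. Siglech, Cd209d and Klk1 were at 0 in all libraries and the 6 markers summed to 80.1 to 164 in KO and 84.7 to 161 in WT, of which Cox6a2 was the only one that passed the minimum mean. The ratio of Tcf3 to Tcf4 had a log2 difference of 0.03 (exact two-sided sign-flip p = 0.75).

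Other E protein genes and the Id genes, whose products bind E proteins and keep them off DNA, were listed as 12 genes, of which 8 were tested. Their median log2 change was 0.07, and none passed the adjusted threshold. Tcf12, the third E protein gene, was higher in KO in all 3 pairs with a mean log2 change of 0.11 (CI -0.04 to 0.27). Id3 and Id2, the inhibitors detected, had log2 changes of 0.00 (CI -0.55 to 0.56) and -0.15 (CI -0.69 to 0.39). Id1 stayed at or below 3.61 normalized counts, around the level of 3 fragments.

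Spi1 (ENSMUSG00000002111, chr2:91082390-91115756, plus strand), the gene of PU.1, measured 223, 271 and 238 in KO and 212, 223 and 238 in WT. The KO library of pair 2 was highest, and the partners of pair 3 were nearly equal. The log2 change was 0.12 (SE 0.10, CI -0.12 to 0.35, limma adjusted p = 0.970), with means of 244 ± 24.5 in KO and 225 ± 13.1 in WT (SD, n = 3). PU.1 is also abundant in myeloid cells. The 10 myeloid markers, of which 2 passed the minimum mean, summed to 20.0 to 131 normalized counts in KO and 64.8 to 90.3 in WT. Ly6g, Elane, S100a8 and S100a9, markers of neutrophils and their precursors, were at 0 in all libraries. What part myeloid cells have in the values of Spi1 was not tested.

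Spib, the lymphoid relative of Spi1, had a log2 change of 0.03 (CI -0.20 to 0.25), and Spic, its relative of red pulp macrophages and B cells, stayed at or below 4.82 normalized counts. The ratio of Spi1 to Spib did not differ between genotypes beyond the pairs' spread (log2 difference 0.09, exact two-sided sign-flip p = 0.75). Irf4, the partner of PU.1 at the light chain enhancers, measured 3664, 1828 and 2647 in KO and 2886, 1876 and 3338 in WT. KO was higher in pair 1 and lower in pair 3, and the log2 change was -0.01 (SE 0.12, CI -0.30 to 0.29). Of 29 tested genes of other Ig enhancer factors, 3 were higher and 3 lower in all pairs, beside 11.7% and 13.1% of all genes. Their median log2 change was 0.03, and none passed the adjusted threshold. The groups did not overlap for 3 of the 29, Usf2, Ctcf and Relb, beside 6.83% of all genes. Runx1, a Runt factor of the enhancers, had a log2 change of 0.22 (CI 0.01 to 0.43), and Usf2, a basic helix-loop-helix factor, had one of -0.20 (CI -0.40 to -0.00). Ctcf, the insulator protein, had one of 0.10 (CI -0.06 to 0.27).

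Ell2 (ENSMUSG00000001542, chr13:75706757-75772364, plus strand), the elongation factor of the secretory switch, measured 1715, 1223 and 1771 in KO and 1602, 1432 and 2172 in WT. KO was higher in pair 1 and lower in pairs 2 and 3, with ratios of KO to WT of 1.07, 0.854 and 0.815. The means were 1569 ± 301 in KO and 1735 ± 388 in WT (SD, n = 3), and the log2 change was -0.14 (SE 0.09, CI -0.35 to 0.07, limma adjusted p = 0.970). The CI allows a fall of at most 21.7%. Without pair 1, the pair that ran the other way, the log2 change was -0.26, with an unadjusted limma p of 0.0199 and an adjusted p of 0.441. In that fit 627 genes were lower and 238 higher of 12322 at an unadjusted limma p under 0.05. The log2 change of Ell2 was -0.10 without pair 2 and -0.06 without pair 3.

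Ell2 and Pou2af1 shared the pattern of a higher KO value in pair 1 and lower ones in pairs 2 and 3, which 12% of all genes had. Their log2 values across the 6 libraries had a Pearson r of 0.89 and a Spearman rho of 0.71, given as a description because the libraries share pairs and size factors. Plasma cell genes were uneven between partners too, and 2 of the 6 tested markers, Irf4 and Jchain, had this same pattern. The summed plasma cell markers were 20451, 11616 and 14567 in KO and 15972, 12008 and 24686 in WT. The sum was thus higher in KO in pair 1, slightly lower in pair 2 and lower in pair 3. The median log2 ratios over the 6 tested markers were 0.38, -0.02 and -0.51 in pairs 1 to 3. Jchain, which joins IgM and IgA chains into polymers, had log2 ratios of 0.42, -0.24 and -1.57, and Prdm1, the gene of BLIMP1, had 0.80, 0.01 and -0.52. Xbp1, the transcription factor of the secretory program, had 0.72, 0.24 and -0.40, and Mzb1, a chaperone of Ig assembly, was lower in all pairs at -0.12, -0.20 and -0.67. What part the content of plasma cells has in the values of Pou2af1 and Ell2 was not tested.

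**Figure D4:**
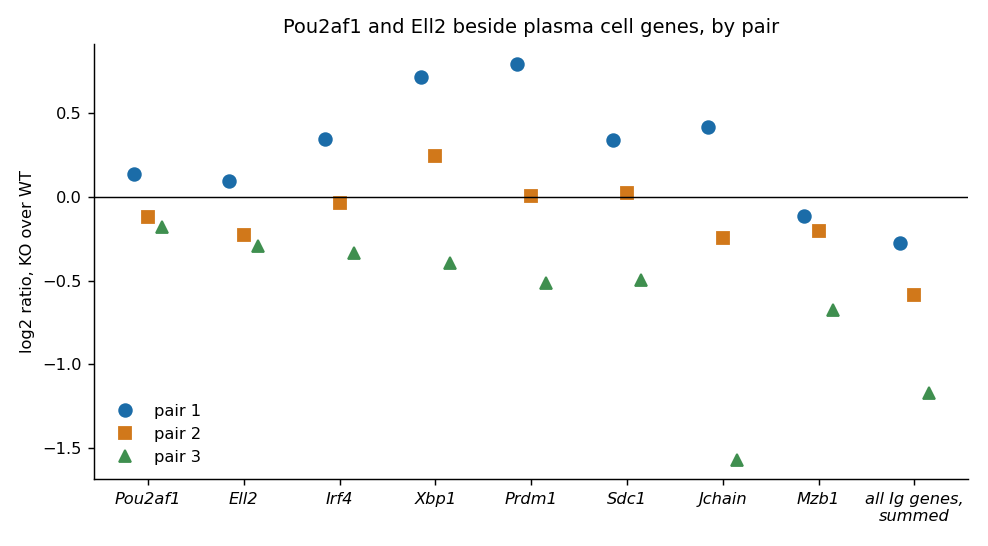
Log2 ratio of KO to WT (vertical axis) for Pou2af1, Ell2, plasma cell genes and the sum of all Ig genes (horizontal axis), with a marker for each of pairs 1, 2 and 3. Pou2af1 goes from 0.14 to -0.18, Ell2 from 0.10 to -0.29 and Prdm1 from 0.80 to -0.52 between pairs 1 and 3.

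The promoters of Pou2af1 and Ell2 are shown because these 2 factors followed each other across libraries (Pearson r = 0.89). The pair was picked for that value, which was not the strongest among the factors. Pou2f1 and Pou2f2 had a Pearson r of 0.97, and Tcf3 and Pou2af1 one of -0.87. Other genes were closer to each, such as Capn1 to Pou2af1 (r = 0.985) and Vps18 to Ell2 (r = 0.995). The sequences are RefSeq windows of 250 bases before to 50 after the start, on GRCm38.p6, at chr9:51213440-51213739 and chr13:75707234-75707533, both on the plus strand. The Ell2 window lies inside the Gencode span of the gene, which begins at chr13:75706757, upstream of this RefSeq start. Its marked motif is therefore within the gene as Gencode annotates it. Capitals mark TGACGTGG, the unfolded protein response element, in Pou2af1 and TGACGTCA, the cAMP response element, in Ell2, which share their first 6 letters.
Pou2af1 promoter: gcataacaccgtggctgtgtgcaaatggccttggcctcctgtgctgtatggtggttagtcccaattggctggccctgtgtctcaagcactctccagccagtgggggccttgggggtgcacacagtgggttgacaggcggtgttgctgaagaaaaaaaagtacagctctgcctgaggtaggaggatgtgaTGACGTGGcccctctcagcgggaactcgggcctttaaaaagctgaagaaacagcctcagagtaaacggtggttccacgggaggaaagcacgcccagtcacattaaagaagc
Ell2 promoter: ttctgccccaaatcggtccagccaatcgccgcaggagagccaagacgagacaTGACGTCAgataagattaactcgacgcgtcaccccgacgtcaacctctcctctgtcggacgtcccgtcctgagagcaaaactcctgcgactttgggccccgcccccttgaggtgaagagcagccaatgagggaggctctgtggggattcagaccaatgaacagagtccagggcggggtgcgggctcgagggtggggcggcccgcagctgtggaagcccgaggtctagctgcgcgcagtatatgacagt
Both strands were searched, and the motifs stand in 0.676% and 1.79% of all 32851 windows. Windows were found for 6 of the 9 genes, and the octamer ATGCAAAT (1.74% of all windows), the E box CAGGTG (20.2%) and the PU box GAGGAAGT (3.2%) were in none of their 8 windows. A match of letters is a description and does not show binding.

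Ell, the widely expressed paralog of Ell2, had a log2 change of 0.04 (CI -0.29 to 0.36). Ell2 per Ell was lower in KO in all 3 pairs, with log2 differences of -0.06, -0.37 and -0.10. The mean ratio was 14.8 ± 2.08 in KO and 16.7 ± 0.50 in WT (SD, n = 3), with a mean log2 difference of -0.18. Its exact sign-flip p was the smallest possible, 0.25, and 0.875 after adjustment over the ratios tested. Ell rested on 85 to 123 fragments per library. Ell3 was at or below 4.72 normalized counts. Of the partners of ELL proteins, Eaf1 had a log2 change of -0.05 (CI -0.26 to 0.17) and Eaf2 one of 0.21 (CI -0.33 to 0.75). Of 29 tested elongation genes, 5 were higher and 0 lower in all pairs, beside 11.7% and 13.1% of all genes, with a median log2 change of 0.00 and none past the adjusted threshold. Mllt3, Larp7 and Leo1, of the super elongation complex, the 7SK particle and the PAF1 complex, had log2 changes of 0.24, 0.20 and 0.14, each with a CI that crossed 0.

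Cstf2 (ENSMUSG00000031256, chrX:134059187-134086819, plus strand), the gene of CstF-64, measured 601, 685 and 601 in KO and 614, 642 and 683 in WT. KO was higher in pair 2 and lower in pairs 1 and 3, and the groups spanned nearly the same range. The log2 change was -0.04 (SE 0.08, CI -0.23 to 0.15, limma adjusted p = 0.980), with means of 629 ± 48.6 in KO and 646 ± 34.6 in WT (SD, n = 3). The interval allows a fall of at most 14.6% or a rise of at most 10.9%. Its autosomal paralog Cstf2t had a log2 change of 0.02 (CI -0.15 to 0.18), and the ratio of Cstf2 to Cstf2t a log2 difference of -0.06 (exact two-sided sign-flip p = 1).

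Of the other CstF subunits, Cstf1 had a log2 change of 0.02 (CI -0.22 to 0.26), and Cstf3 was lower in KO in all 3 pairs with a mean log2 change of -0.09 (CI -0.27 to 0.09). All 22 cleavage and polyadenylation genes listed were tested, with a median log2 change of 0.01, 3 lower and 2 higher in all pairs, and none past the adjusted threshold. Pabpn1, the nuclear poly(A)-binding protein, was higher in all pairs (0.11) and Ppp1cb, a phosphatase catalytic subunit, lower (-0.07), both with intervals that crossed 0.

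Hnrnpll (ENSMUSG00000024095, chr17:80029487-80062334, minus strand) measured 104, 106 and 63.6 in KO and 108, 62.7 and 101 in WT. In pair 1 the partners were close, in pair 2 KO was higher by 0.75 on the log2 scale and in pair 3 it was lower by a log2 ratio of -0.66. The low values rested on 70 fragments in the KO library of pair 3 and 60 in the WT library of pair 2. Their 95% Poisson intervals, 49.5 to 80.3 and 47.9 to 80.7 normalized counts, cover counting error only, and the intervals of the other 4 libraries began at 80.7 or above. The group means were nearly the same, 91.1 ± 23.8 in KO and 90.5 ± 24.3 in WT (SD, n = 3). The log2 change was 0.01 (SE 0.26, CI -0.62 to 0.64, limma adjusted p = 0.997), so a fall of up to 34.7% or a rise of up to 55.4% was within the interval.

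Hnrnpl, its paralog, measured 2052 ± 24.7 in KO and 2038 ± 44.6 in WT (SD, n = 3), and the ratio of Hnrnpll to Hnrnpl had a log2 difference of 0.00 (exact two-sided sign-flip p = 1). All 31 genes listed for hnRNP, SR and U1 snRNP proteins were tested, with a median log2 change of -0.00, 2 lower and 1 higher in all pairs, and none past the adjusted threshold. Hnrnph3 was higher with a log2 change of 0.29 (CI -0.01 to 0.59), and Snrpc, a U1 protein, and Srsf6, an SR protein, were lower with -0.07 and -0.03, all with intervals that crossed 0. Over the 6 lists, 128 of 135 distinct genes were tested, and 1 was lower and 2 were higher at an unadjusted limma p under 0.05, beside 3.03% and 1.67% of all genes.

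**Figure D5:**
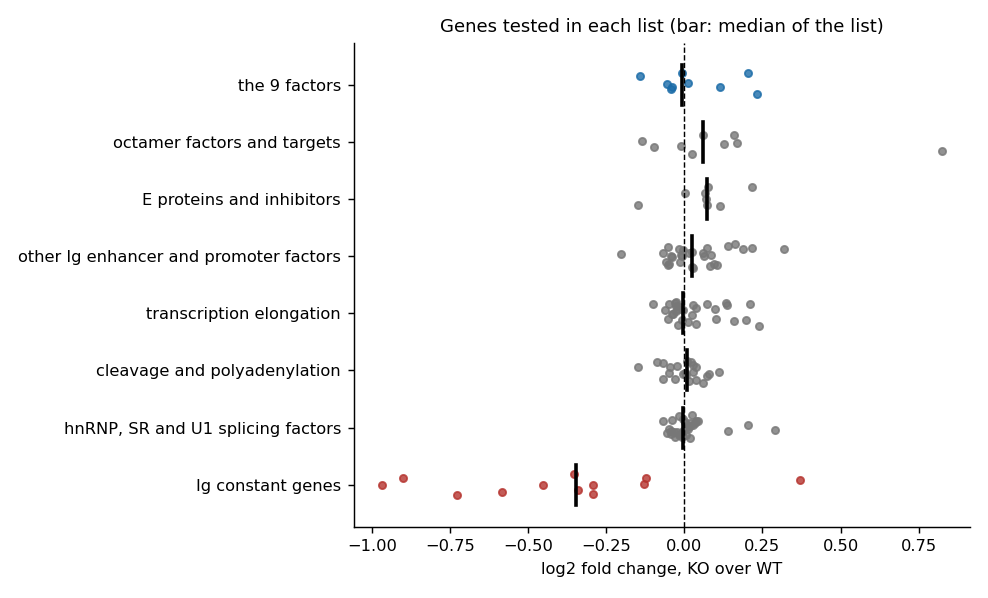
Log2 change of KO against WT (horizontal axis) for each tested gene of the 6 lists, with the list's median as a bar, beside the 9 factors and the Ig constant genes. The 6 medians lie between -0.00 and 0.07, and that of the Ig constant genes is -0.35.

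Levels of different factors were ranked per kilobase of sequence. Per kilobase of all exons of the gene, Pou2af1 averaged 2652 normalized counts, Tcf3 444 and Ell2 168, and their ranges over the 6 libraries did not overlap. Spi1 (86.9), Pou2f2 (73.9) and Cstf2 (69.5) followed, each overlapping its neighbour in range, then Tcf4 (36.7) and Pou2f1 (34.9), which overlapped too. Hnrnpll was last at 7.78. Per kilobase of the principal transcript the first 3 and the last kept their places, but Pou2f1 moved up to follow Ell2 at 241, so the order of the middle 5 depends on the length used. Pou2f1 shares 3007 exonic bases with Cd247 and Cstf2 399 with Nox1 on the opposite strand, and counting was by strand. On the same strand, Ell2 shares 130 with the snoRNA Gm23127, Cstf2 82 with Mir3112 and Pou2f2 35 with Mir6537. Counting by strand does not separate these.

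The Ig transcripts on which these factors act had lower means in KO, none past the adjusted threshold. Ighm had a log2 change of -0.35 (CI -0.63 to -0.08), Ighg1 one of -0.97 (CI -1.44 to -0.49) and Igkc one of -0.90 (CI -1.29 to -0.51), with limma adjusted p of 0.970, 0.693 and 0.693. Counts summed over all 395 Ig genes were 131061, 64193 and 95222 in KO and 158572, 96387 and 214661 in WT, lower in KO in each pair. Divided by the level of any of the 9 factors in the same library, the Ig sum was lower in KO in 27 of 27 combinations of factor and pair, by log2 differences from -1.68 to -0.19. For Pou2af1 they were -0.41, -0.46 and -0.99, and for Ell2 -0.37, -0.36 and -0.88. The Ig sum and each factor are read in the same 3 pairs, so the 27 combinations are not independent of each other. No test was made of them. The Ig sum alone had log2 ratios of -0.27, -0.59 and -1.17 in pairs 1 to 3. Division by any gene whose own level fell less keeps those signs, so the count is not particular to these factors.

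The 2 genes most like each factor were looked for among all genes that averaged 100 or more normalized counts. By Pearson r of the log2 values, a description over 6 libraries, the closest to Pou2af1 were Capn1 (0.985) and Plec (0.984), and the closest to Ell2 were Vps18 (0.995) and Dtx2 (0.990). Smg1 (0.995) and Tsfm (0.992) were closest to Pou2f1, and Polr2b (0.996) and Akap13 (0.992) to Pou2f2. For the E proteins these were Rcor1 (0.994) and Ankrd27 (0.992) with Tcf3, and E2f2 (0.988) and Tcea1 (0.984) with Tcf4. Spi1 was followed by Hist1h3e (0.988) and Ppp1r16a (0.987), Cstf2 by Zfp64 (0.993) and Ppp1r14b (0.991), and Hnrnpll by Bcl2a1a (0.982) and Kif16b (0.979). These are the highest values among 7905 genes for each factor, or 7906 for Hnrnpll, and were chosen as such.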

How the data were processed

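The authors isolated RNA with Trizol, removed ribosomal RNA, added ERCC spike-in RNA and made strand-specific dUTP libraries. Per the labels and the study's methods, reads were aligned with STAR 2.6.1a to the mouse genome (mm10, GRCm38), counted per gene by strand with featureCounts (Subread 1.6.3) and normalized with DESeq2. The deposited values are this signal, normalized counts, and 100% of them are whole multiples of a library step within a tolerance of 0.01, so the fragments were recovered. A count of 3 fragments equals 2.72 to 3.61 normalized counts.

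The main test was limma 3.58.1 (R 4.3.3) with an intensity trend on log2(normalized count + 1), over 12322 genes averaging 10 or more, with genotype and pair as terms, Benjamini-Hochberg adjustment and a threshold of 0.05. A fold change on this scale understates the change of low genes. Ratios between genes were tested with an exact sign-flip test over the 3 pairs. Alternatives were pseudocounts of 0.5 and 5, no filter, a mean of at least 50, TMM, quantile and median-ratio scaling without Ig genes, no block, edgeR 4.0.16 on the recovered fragments, DESeq2 1.42.0 and leaving out each pair. The batch label, equal to the replicate number, gives the pairing, and deviations from the group means correlated by 0.328, 0.685 and 0.170 within pairs. Fits were tested on simulated data. Coordinates and lengths are from Gencode on GRCm38, which matched 54409 of 54446 rows.

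Genes named are the 9 factors, fixed paralogs and partners, Tent5c, Ighm, Ighg1 and Igkc, from each pathway list the 3 genes with the smallest unadjusted p among those of 1 direction in all pairs, and for each factor the 2 genes most like it. The factors and lists were chosen with earlier results of these data known. Jchain, Mzb1, Xbp1 and Prdm1, the remaining marker genes named, and the Ig sum per factor were chosen after values were seen. Erythroid markers, 0 of 7 tested, summed to at most 4.72 normalized counts. Promoter windows came from RefSeq, and the windows of Tcf4, Spi1 and Hnrnpll were not used here.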

Additional observations from a re-analysis of the deposited data

How the results depend on the processing

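No factor passed the adjusted threshold under any alternative, a count of 0 in each. At an unadjusted limma p under 0.05, 1 factor (Ell2) passed without replicate 1, beside 627 genes lower and 238 higher of 12322. Without replicate 2 it was 2 factors (Pou2f1 and Pou2f2), beside 292 genes lower and 143 higher of 12322. The median log2 change of the factors lay between -0.011 and 0.0038 under the alternatives that kept all pairs and between -0.0024 and 0.032 without 1 replicate. DESeq2 called 22 genes lower and 1 higher over the whole table, none of them a factor, where limma called 0 and edgeR 0. Leaving out 1 replicate gave 0 to 168 genes lower and 0 to 3 higher in limma, and the 168 came without replicate 1, where Ighg1 (adjusted p = 0.00400) and Igkc (adjusted p = 0.00203) passed in limma.

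Without the pairs as a block, 0 factors and 0 genes were called, the median of the factors was -0.0078, and the block changed no other call. Values near 0 changed sign with the scaling: Tcf3 to 0.0025 with TMM and 0.0038 with quantile normalization, and Irf4 to 0.0011 and 0.0039. Id3 became -0.00031 when Ig genes were left out of the scaling, -0.017 by edgeR and -0.0053 in DESeq2, and Hnrnpll per Hnrnpl became -0.00047 with a pseudocount of 5. The other scalings moved the median of all genes by at most 0.02 on the log2 scale.

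Leaving out 1 replicate turned the direction of several log2 changes, whose ranges were -0.15 to 0.0093 for Pou2af1, -0.15 to 0.050 for Tcf4, -0.11 to 0.032 for Cstf2 and -0.36 to 0.35 for Hnrnpll. Among partners they were -0.28 to 0.31 for Id3, -0.11 to 0.11 for Spib, -0.024 to 0.15 for Ell, -0.10 to 0.034 for Eaf1, -0.035 to 0.57 for Eaf2, -0.073 to 0.12 for Cstf1, -0.0089 to 0.025 for Hnrnpl and -0.19 to 0.15 for Irf4. They were -0.033 to 0.52 for Tent5c, -0.91 to 0.086 for Jchain, -0.077 to 0.48 for Xbp1 and -0.25 to 0.40 for Prdm1. The ratios ranged from -0.0075 to 0.070 (Pou2f2 per Pou2f1), -0.052 to 0.13 (Tcf3 per Tcf4), -0.081 to 0.28 (Spi1 per Spib), -0.11 to 0.031 (Cstf2 per Cstf2t) and -0.38 to 0.36 (Hnrnpll per Hnrnpl). The causes were not tested.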

Other observations

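Factors of the plasma cell program gave the same direction when the Ig sum was read against them. The log2 difference of the Ig sum over Xbp1 was -0.995, -0.83 and -0.78 in pairs 1 to 3, with a mean of -0.87 and an SD of 0.11. Against Irf4 it was -0.62, -0.55 and -0.84, and against Prdm1 -1.07, -0.59 and -0.66. In every pair each of these genes rose or fell less than the Ig sum did, so the negative sign follows from the Ig sum. These ratios were chosen after their values were seen and were not tested.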
